A study of Mus musculus with 12 samples.

Results

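Cyp2a and Cyp2b enzymes are cytochrome P450s of the liver, and 7 mouse genes of these subfamilies are described here over the 4 groups of the study: Cyp2b10, Cyp2b9, Cyp2b13, Cyp2a4, Cyp2a5, Cyp2a12 and Cyp2a22. They were taken by symbol from the table of transformed values and joined by Ensembl identifier to the table of expected counts, in which they are 7 of 51912 genes. Of the 7, 5 had their symbol in the first table (17859 genes), while Cyp2b9 and Cyp2b13 were matched by identifier through a list of gene names. Only 3 of the 7 (Cyp2b10, Cyp2a5 and Cyp2a12) passed the filter on low counts and were tested, among 8594 genes in all.

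Livers came from 12 adult male mice, 3 in each group. WT mice received corn oil or CITCO, an agonist of human CAR. hCAR/hPXR mice carry the human receptors CAR and PXR in place of the mouse ones, and Car KO/hPXR mice have no mouse Car and carry human PXR; both genotypes received CITCO and were made on a C57BL/6NTac background, and the strain of the WT mice and the promoters of the human genes are not given in the sources used here. Injections were intraperitoneal on 4 consecutive days, with the livers collected on day 5, and the labels give 10 mg/kg CITCO, where the methods name 10 and a higher dose. All corn oil libraries were from WT mice, so an effect of CITCO in a humanised genotype cannot be told apart from one of the genotype.

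CAR (gene Nr1i3) is a nuclear receptor that pairs with RXR and switches on genes for drug metabolism, and a distal enhancer of Cyp2b10 is its best known target in mouse liver. PXR (gene Nr1i2) is a related receptor for drugs and steroids that shares many targets with CAR. Work cited by the authors, mainly in cell lines, proposes human PXR as a further receptor activated by CITCO. Cyp2a5 is the mouse coumarin hydroxylase and the counterpart of human CYP2A6, Cyp2a4 and Cyp2a12 hydroxylate steroids, and Cyp2b9, Cyp2b13 and Cyp2a4 are known as genes of female rather than male mouse liver.

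The 7 genes lie in 1 cluster on chromosome 7, within chr7:25897620-27037375 of GRCm38 (1139.8 kb, GENCODE M21). Cyp2b10 (chr7:25897620-25926624, + strand, 10 exons in the transcript used) stands first, followed by Cyp2b13 (chr7:26061497-26096197, +), Cyp2b9 (chr7:26173411-26210661, +), Cyp2a4 (chr7:26307169-26315088, +), Cyp2a5 (chr7:26835305-26843548, +), Cyp2a22 (chr7:26931631-26939384, -) and Cyp2a12 (chr7:27029081-27037375, +), which have 9 exons each. The other Cyp2 genes Cyp2b23, Cyp2b19 and Cyp2g1 sit between Cyp2a4 and Cyp2a5. Cyp2a4 and Cyp2a22 overlap Gm42375 and Cyp2a21-ps, which lie on the opposite strand, and whether the counting used strand is not given in the sources used here, so their few reads are uncertain for this reason too. Rnf170-ps lies within Cyp2b13 on the same strand.

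Several members are close copies. The coding sequences of Cyp2a4 and Cyp2a5 were 98.4% identical over 1482 aligned bases, and the stretches after the stop codon, where libraries from 3′ ends have most of their reads, were 96.6% identical over 208 aligned bases. Cyp2a12 and Cyp2a22 matched at 97.0% of 1476 coding bases and at 90.5% of 189 bases after the stop codon. Cyp2b9 and Cyp2b13 matched at 92.7% and 75.9%, and Cyp2b10 matched Cyp2b9 at 86.2% and 77.8%. RSEM shares out reads that match more than one gene, and the values of Cyp2a5 were not whole numbers in 11 of 12 libraries and those of Cyp2a4 in 9, against 6 for Cyp2a12, 6 for Cyp2a22 and 0 for Cyp2b10. Sums of near-identical genes, which do not depend on the division between the genes summed, are therefore given beside the single genes. The sum of Cyp2a4 and Cyp2a5 was not whole in 5 of 12 libraries, all of them humanised. Some division with genes outside the sum thus remained.

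The 250 bases before the RefSeq transcription start (RefSeq, GRCm38.p6, each read 5′ to 3′ on the strand of its gene) are shown for 3 pairs in which a gene with reads in the liver stands beside a relative with few or none. For Cyp2b10, Cyp2a4, Cyp2a5 and Cyp2a12 the RefSeq start lies downstream of the GENCODE start, so the last bases of these windows fall inside the gene spans given above. Capitals mark the bases that differ from, or have no partner in, the other gene of the pair after alignment. The pair of Cyp2b10 (chr7:25897408-25897657, +) and Cyp2b9 (chr7:26173159-26173408, +) was 71.7% identical over 254 aligned positions, with 68 differing bases in each, and the Cyp2b9 window was 99.2% identical to that of Cyp2b13.
Cyp2b10: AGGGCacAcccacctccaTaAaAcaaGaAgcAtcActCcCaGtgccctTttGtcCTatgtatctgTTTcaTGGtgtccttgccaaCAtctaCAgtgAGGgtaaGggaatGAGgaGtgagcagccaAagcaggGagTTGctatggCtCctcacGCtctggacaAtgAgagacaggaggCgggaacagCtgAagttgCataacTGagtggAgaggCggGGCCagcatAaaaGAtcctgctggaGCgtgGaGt
Cyp2b9: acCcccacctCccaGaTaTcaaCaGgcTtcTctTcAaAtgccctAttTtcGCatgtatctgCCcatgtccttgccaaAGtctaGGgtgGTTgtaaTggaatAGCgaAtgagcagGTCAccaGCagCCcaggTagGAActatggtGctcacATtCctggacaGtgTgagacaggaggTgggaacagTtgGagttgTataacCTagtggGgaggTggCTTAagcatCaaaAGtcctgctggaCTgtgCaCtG
The windows of Cyp2a5 (chr7:26835089-26835338, +) and Cyp2a4 (chr7:26306942-26307191, +) were 98.4% identical over 249 aligned positions, and 5 bases of each are in capitals.
Cyp2a5: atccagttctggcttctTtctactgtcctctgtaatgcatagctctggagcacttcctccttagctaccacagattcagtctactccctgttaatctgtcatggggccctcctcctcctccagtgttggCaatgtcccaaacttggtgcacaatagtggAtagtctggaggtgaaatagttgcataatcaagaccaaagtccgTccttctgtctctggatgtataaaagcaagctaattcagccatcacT
Cyp2a4: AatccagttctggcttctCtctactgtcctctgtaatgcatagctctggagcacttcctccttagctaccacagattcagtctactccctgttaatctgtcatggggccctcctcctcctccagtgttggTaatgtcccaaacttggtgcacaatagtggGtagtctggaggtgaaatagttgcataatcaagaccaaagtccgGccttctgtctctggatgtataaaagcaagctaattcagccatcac
Cyp2a12 (chr7:27028840-27029089, +) and Cyp2a22 (chr7:26939387-26939636, -) were 88.8% identical over 242 aligned positions, and 35 bases of each are in capitals.
Cyp2a12: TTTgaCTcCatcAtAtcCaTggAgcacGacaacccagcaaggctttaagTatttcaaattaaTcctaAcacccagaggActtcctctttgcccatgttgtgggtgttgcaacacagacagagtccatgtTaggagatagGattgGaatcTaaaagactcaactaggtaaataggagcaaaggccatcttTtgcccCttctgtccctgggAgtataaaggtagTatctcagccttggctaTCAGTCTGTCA
Cyp2a22: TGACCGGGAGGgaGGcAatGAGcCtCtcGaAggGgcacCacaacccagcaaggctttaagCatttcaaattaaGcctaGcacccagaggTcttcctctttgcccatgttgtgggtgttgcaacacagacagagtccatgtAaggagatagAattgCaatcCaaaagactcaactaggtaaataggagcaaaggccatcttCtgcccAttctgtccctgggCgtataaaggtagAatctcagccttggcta

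Motifs were searched by their letters on both strands of these windows. AGGTCA, a nuclear receptor half-site, was found in Cyp2b9 and Cyp2b13, from 138 bases before the start, and in 14% of 32851 windows of the same length. TTGCATAA, which resembles a C/EBP site, was found in Cyp2b10, in the near-identical windows of Cyp2a4 and Cyp2a5, and in 0.7% of all windows. It was chosen after the sequences had been read, so this share is no test of enrichment. TATAAA was found in Cyp2a4, Cyp2a5, Cyp2a12 and Cyp2a22 and in 12.4% of all windows. AGTTCA, CAAAGTCCA (HNF4) and TTCNNNGAA (STAT5) were found in none of the 7 windows and in 11.8%, 0.4% and 7.0% of all windows. The enhancer of Cyp2b10 bound by CAR lies outside these windows and was not examined.

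Libraries held 1167027 to 2341572 counts, and expression is given below as counts or as CPM, counts scaled to library size after TMM normalisation. The mouse receptor genes checked WT against humanised mice only. They were low in both humanised genotypes and cannot tell hCAR/hPXR from Car KO/hPXR mice. Nr1i2 had 100 to 199 counts in the 6 WT libraries and 0 to 2 in the 6 humanised ones, and Nr1i3 had 104.27 to 286.75 and 0 to 5.56 (Nr1i3 overlaps Tomm40l on the other strand). All 6 hepatocyte markers were tested and none was called. Their summed level was 19725 to 35694 CPM in hCAR/hPXR libraries (median 21086), 26205 to 34239 in WT CITCO (32574), 27372 to 31169 in WT corn oil (27381) and 29082 to 31928 in Car KO/hPXR (31611), and 5 of the 6 were lower in hCAR/hPXR than in WT CITCO mice. The summed level of the immune cell markers was 77.1 to 138 CPM over all libraries, with all 4 tested markers above 0 on the log2 scale for hCAR/hPXR against Car KO/hPXR (median 0.64) and none called, and that of the bile duct cell markers 7.65 to 22.0 CPM. Of the markers of hepatocytes and 5 other cell types, only Alas2, a red blood cell gene, was called, lower in hCAR/hPXR mice than in WT corn oil mice (0.498-fold), and red blood cell markers summed to 1839 to 2168 CPM in the hCAR/hPXR libraries, 1965 to 3940 CPM in WT CITCO and 2273 to 3840 CPM in WT corn oil; the part of any of these markers in the results below was not tested. In bulk liver, fewer cells of a type and less RNA per cell cannot be told apart.

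Calls required a fold change over 1.5 and a p-value from edgeR's quasi-likelihood test, adjusted by Benjamini and Hochberg's method over all genes, under 0.05. With CITCO given to both, hCAR/hPXR and WT mice differed in 0.407% of the genes tested, and 1 of the 3 tested members, Cyp2b10, was among them. The shares of all genes called were 0.582% for hCAR/hPXR against Car KO/hPXR, 0.977% for hCAR/hPXR against WT corn oil, 0.256% for Car KO/hPXR against WT CITCO, 0.233% for WT CITCO against WT corn oil and 0.0465% for Car KO/hPXR against WT corn oil. Cyp2b10 was called in the first 2 of these. No member was called in the other 3, in each of which 1 member had an unadjusted p under 0.05, against 9.27%, 9.12% and 5.59% of all genes in the order given, and DESeq2 called 0 as well.

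Cyp2b10 RNA was abundant in hCAR/hPXR mice given CITCO and close to the limit of detection in all other groups. Its counts were 281, 288 and 184 in the hCAR/hPXR libraries. WT mice given CITCO had 2, 6 and 2 counts, WT mice given corn oil had 3, 0 and 0, and Car KO/hPXR mice given CITCO had 1, 0 and 3. The lowest hCAR/hPXR library lay far above the highest of the other 9, and the latter 3 groups overlapped each other. In CPM the levels were 154 ± 10.5 (SD, n = 3) in hCAR/hPXR, 2.26 ± 1.6 (SD, n = 3) in WT CITCO, 1.02 ± 1.26 (SD, n = 3) in Car KO/hPXR and 0.443 ± 0.767 (SD, n = 3) in WT corn oil mice. On the authors' transformed scale, which resembles log2, the hCAR/hPXR libraries were between 8.03 and 8.21 and no other library was above 5.35.

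Against WT mice given CITCO, Cyp2b10 was 6.05 higher on the log2 scale in hCAR/hPXR mice (standard error 0.40, adjusted p = 4.83e-08, edgeR). Because the lower group held only 10 counts, the ratio of the summed counts at equal depth is also given, 68.4 with a 95% interval of 37.0 to 143, which covers counting error only. Against Car KO/hPXR mice, which also carry human PXR but have neither mouse nor human CAR, the log2 difference was 7.16 (standard error 0.46, adjusted p = 5.99e-08, edgeR) and the count ratio 155 (60.1 to 569). Against WT corn oil, the difference was 7.92 (standard error 0.47, adjusted p = 8.34e-09, edgeR) and the count ratio 274 (93.5 to 1333). These 3 comparisons share the hCAR/hPXR libraries. In each of them the hCAR/hPXR libraries were all higher, without overlap, which held for 7.11%, 8.01% and 8.49% of all genes tested, and the two-sided exact permutation test gave p = 0.1, the smallest that 3 mice against 3 allow. Cyp2b10 kept its call in all 20 alternatives of each comparison, and the size of the difference rested on the few counts of the low groups. Without WT CITCO replicate 2, with 6 of the 10 counts, the difference from WT CITCO was 6.75, and without Car KO/hPXR replicate 3, with 3 of the 4 counts, that from Car KO/hPXR was 8.46. Without WT corn oil replicate 1, WT corn oil was left at 0, and its fitted difference (10.85) is then no bound.

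Among the other groups, Cyp2b10 was tested in the fit of all 12 libraries only because of its counts in hCAR/hPXR mice. With the same filter on low counts, fits of only 2 of these other groups left it out. Cyp2b10 had 10 counts in the 3 WT CITCO libraries and 3 in the WT corn oil libraries, all of these in replicate 1. The log2 difference was 1.87 (standard error 0.87, 95% interval 0.04 to 3.70), which was not called (adjusted p = 0.536 by edgeR), and the count ratio was 4.01 (1.03 to 22.7). Two-sided exact permutation gave p = 0.2 for the same pair. Without WT CITCO replicate 2 the difference was 1.17, and without WT corn oil replicate 1, which leaves WT corn oil at 0, the fitted 4.81 is no bound. Car KO/hPXR mice, with 4 counts, differed from WT CITCO mice by -1.11 (standard error 0.84, 95% interval -2.88 to 0.65, adjusted p = 0.727, edgeR), which was -2.42 without Car KO/hPXR replicate 3 and -0.41 without WT CITCO replicate 2, and no fold is given against the 3 counts of WT corn oil. In order of mean CPM, Cyp2b10 was highest in hCAR/hPXR, followed by WT CITCO, Car KO/hPXR and WT corn oil, and no neighbours in this order after the first differed beyond their spread.

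**Figure D1:**
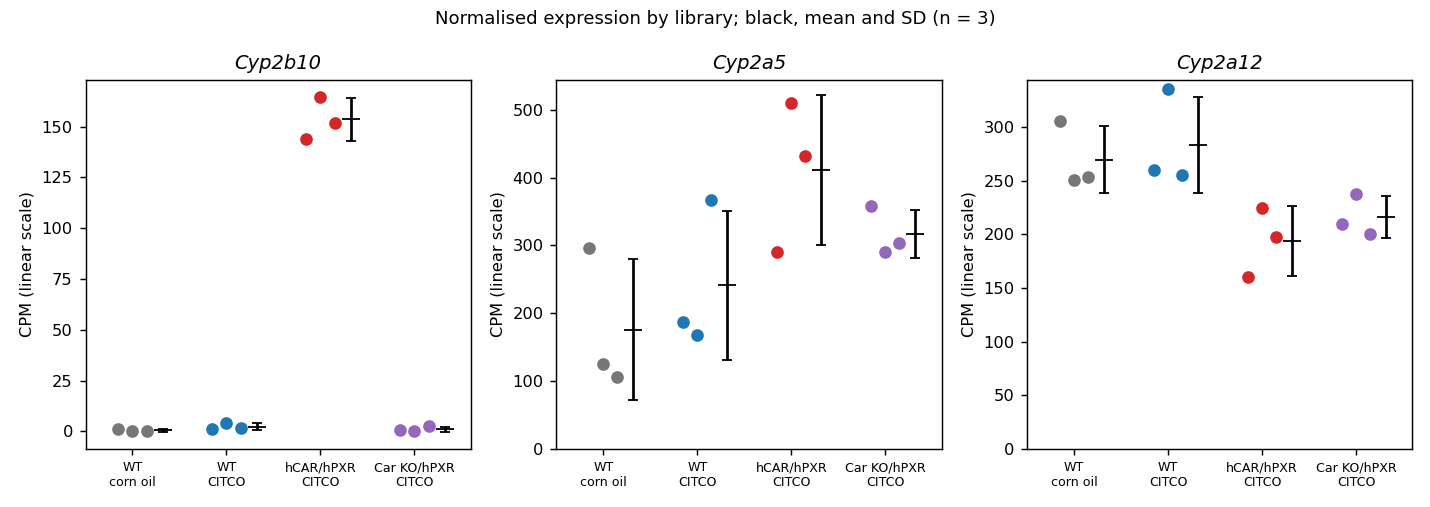
CPM (linear axes from 0 upwards) of Cyp2b10, Cyp2a5 and Cyp2a12 in each of the 12 libraries, coloured by group, with the mean and SD of 3 mice in black. The 3 hCAR/hPXR libraries are the only ones with more than 4.1 CPM of Cyp2b10, and Cyp2a5 overlaps between all groups. The 6 humanised libraries have less Cyp2a12 than any of the 6 WT libraries. The share of all genes that separate in this way was not counted, and Cyp2a12 was not called in any comparison.

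Cyp2b9 and Cyp2b13, the relatives of Cyp2b10 known from female liver, were at or near 0 counts in these male livers in every group. Cyp2b9 had 1 count in hCAR/hPXR replicate 2 and 0 in the other 11 libraries. Cyp2b13 had 0 counts in all 12 libraries. A count of 0 allows up to 3 counts, which was 1.33 to 2.48 CPM per library, for counting error only. In hCAR/hPXR mice, where Cyp2b10 reached 753 counts in all, the sum of Cyp2b9 and Cyp2b13 was thus 1 count, and neither gene nor their sum could be tested at this depth. The sum of the 3 Cyp2b members gave the same calls as Cyp2b10 alone, with log2 differences of 6.05, 7.16 and 7.92.

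Cyp2a4 and Cyp2a22 were also near 0 in every group. Cyp2a4 had expected counts of 5.17, 2.43 and 1.13 in WT corn oil, of 2.28, 0 and 4.69 in WT CITCO, of 0.49, 7.71 and 0 in hCAR/hPXR and of 1.93, 0 and 3.4 in Car KO/hPXR libraries. Cyp2a22 had 2.02, 0 and 0, then 0, 1.01 and 5.04, then 0, 0 and 1.01, and then 3.01, 1.01 and 0 in the same order of groups. All groups overlapped for both genes, and no difference was detectable at this depth: the count ratio of Cyp2a4 between hCAR/hPXR and WT CITCO mice was 1.04 with an interval of 0.329 to 3.36. Cyp2a4 made up 0 to 1.34% of the reads given to Cyp2a4 and Cyp2a5 together, and the upstream windows of these genes printed above differ at only 5 bases.

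**Figure D2:**
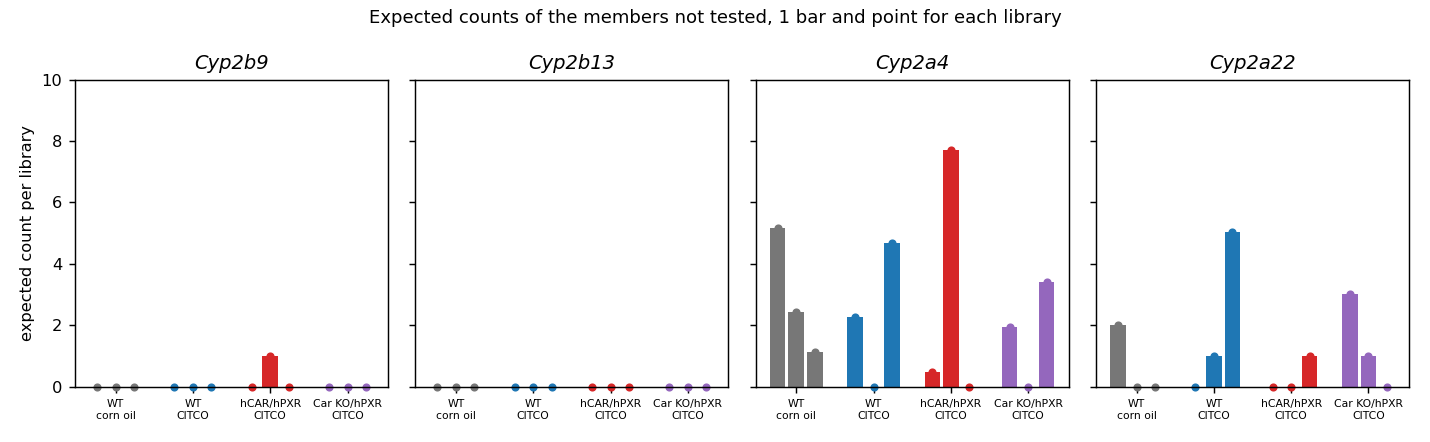
Expected counts (linear axis from 0) of Cyp2b9, Cyp2b13, Cyp2a4 and Cyp2a22, with 1 bar and point for each of the 12 libraries, coloured by group. No library has more than 7.71 counts of any of them, and Cyp2b13 has 0 throughout.

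Cyp2a5 was well expressed in all groups, and its mean was highest in hCAR/hPXR mice without passing the test. By library it was at 296, 126 and 106 CPM in WT corn oil mice and at 187, 168 and 367 CPM in WT CITCO mice. In hCAR/hPXR mice it was at 291, 509 and 432 CPM, and in Car KO/hPXR mice at 358, 290 and 303 CPM. The groups overlapped in all 6 comparisons, since 1 library of each WT group (WT corn oil replicate 1 and WT CITCO replicate 3) stood at or above the lowest humanised libraries. The means were 411 ± 111 CPM (SD, n = 3) in hCAR/hPXR, 317 ± 35.9 (SD, n = 3) in Car KO/hPXR, 241 ± 110 (SD, n = 3) in WT CITCO and 176 ± 105 (SD, n = 3) in WT corn oil, and no neighbours in this order differed beyond their spread.

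The log2 difference in Cyp2a5 between hCAR/hPXR and WT CITCO mice was 0.77 (standard error 0.33, 95% interval 0.08 to 1.46, adjusted p = 0.497, edgeR). Against WT corn oil it was 1.21 for hCAR/hPXR (interval 0.52 to 1.91, adjusted p = 0.108, edgeR) and 0.84 for Car KO/hPXR mice (0.14 to 1.54, adjusted p = 0.747, edgeR). Car KO/hPXR differed from WT CITCO by 0.40 (-0.30 to 1.09) and hCAR/hPXR from Car KO/hPXR by 0.37 (-0.31 to 1.06), and WT CITCO differed from WT corn oil by 0.44 (-0.25 to 1.14), a value that fell to 0.0064 when WT CITCO replicate 3 was left out and reached 1.06 when WT corn oil replicate 1 was. Without WT corn oil replicate 1, the largest library, Cyp2a5 was called higher in hCAR/hPXR than in WT corn oil mice (log2 difference 1.83, adjusted p = 0.00877, edgeR), and without the filter on low counts it was called in the first 3 of these comparisons (adjusted p between 3.13e-08 and 0.00462, edgeR). DESeq2's Wald test, by contrast, gave an adjusted p of 0.915 for hCAR/hPXR against WT CITCO. The sum of Cyp2a4 and Cyp2a5 behaved as Cyp2a5 did, with 0.77, 1.21 and 0.84 in these 3 comparisons, so these values hardly depend on how reads were divided between the pair.

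WT CITCO replicate 3, the library with the highest Cyp2a5 in its group, also stood apart in Saa1, an acute phase gene singled out after its values were seen, with 111 counts against 3577.74 and 2644.12 in the other WT CITCO libraries. In the other groups, Saa1 had 12671.81, 1857.73 and 2193.89 counts in hCAR/hPXR, 291, 455.84 and 100 in Car KO/hPXR and 223, 76 and 30 in WT corn oil libraries. The library with the highest Saa1, hCAR/hPXR replicate 1, had the lowest Cyp2a5 of its group (291 CPM). WT corn oil libraries, with low Saa1, had the lowest mean of Cyp2a5 (176 CPM). Without WT CITCO replicate 3, the Cyp2a5 difference between hCAR/hPXR and WT CITCO mice was 1.2 and still not called (adjusted p = 0.228, edgeR). The part of Saa1 or of what it marks in the Cyp2a5 values was not tested.

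Cyp2a12 had lower values in the humanised mice than in WT mice and was not called in any comparison. It was at 306, 250 and 253 CPM in WT corn oil, 260, 336 and 255 CPM in WT CITCO, 160, 225 and 198 CPM in hCAR/hPXR and 210, 238 and 201 CPM in Car KO/hPXR libraries. All 6 humanised libraries lay below all 6 WT libraries, a split that is not 1 of the 6 comparisons. The share of all genes that separate in this way was not counted. The means were 284 ± 45.1 (SD, n = 3) in WT CITCO, 270 ± 31.4 (SD, n = 3) in WT corn oil, 216 ± 19.4 (SD, n = 3) in Car KO/hPXR and 194 ± 32.7 CPM (SD, n = 3) in hCAR/hPXR mice. The log2 differences were -0.55 for hCAR/hPXR against WT CITCO (standard error 0.17, 95% interval -0.90 to -0.20, adjusted p = 0.252, edgeR), -0.48 against WT corn oil (adjusted p = 0.244, edgeR), -0.39 for Car KO/hPXR against WT CITCO (adjusted p = 0.472, edgeR) and -0.32 against WT corn oil (adjusted p = 0.881, edgeR). In these 4 comparisons, 6.54%, 7.68%, 6.76% and 6.0% of all genes were lower without overlap, and exact permutation gave p = 0.1 in each, the smallest possible. The 95% interval for Car KO/hPXR against WT corn oil, -0.67 to 0.03, included 0. All alternatives kept the 4 negative signs and none called the gene. The 2 WT groups differed by 0.07 (-0.28 to 0.42) and the 2 humanised genotypes by -0.15 (-0.51 to 0.20).

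**Figure D3:**
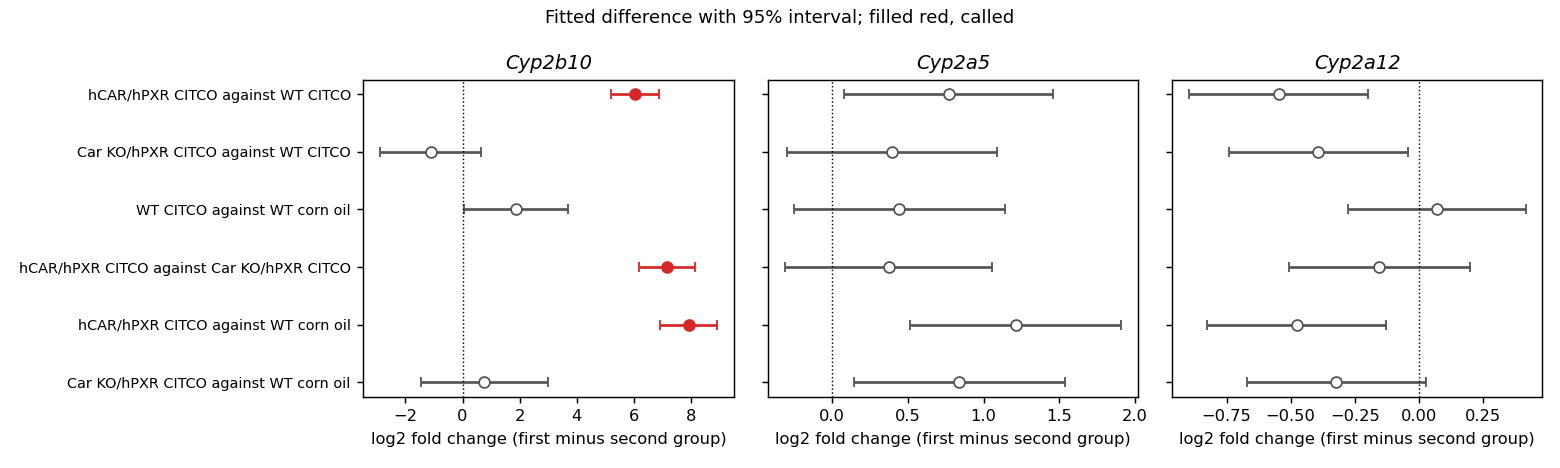
Log2 fold changes (first minus second group, with 95% intervals) of the 3 tested members in the 6 comparisons, on a separate linear axis for each gene. Filled red points were called, which holds for Cyp2b10 in the 3 comparisons of hCAR/hPXR mice, at 6.05, 7.16 and 7.92, and for no point of Cyp2a5 or Cyp2a12.

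The count of Cyp2a5 relative to that of Cyp2a12 in the same library, a measure chosen after the values had been seen, does not depend on the scaling between libraries. It was 0.966, 0.50 and 0.417 in WT corn oil mice and 0.720, 0.501 and 1.44 in WT CITCO mice. In hCAR/hPXR mice it was 1.82, 2.27 and 2.18, and in Car KO/hPXR mice 1.70, 1.22 and 1.51. The hCAR/hPXR libraries lay above all others, and only WT CITCO replicate 3 among the WT libraries reached the range of the Car KO/hPXR mice. The geometric mean was 2.59 times higher in hCAR/hPXR than in WT CITCO mice and 1.42 times higher than in Car KO/hPXR mice (exact permutation p = 0.1 each, the smallest possible). Car KO/hPXR and WT CITCO mice overlapped, with a geometric mean 1.82 times higher in the former (exact permutation p = 0.2). The Car KO/hPXR libraries lay above the WT corn oil libraries without overlap (lowest 1.22 against highest 0.966, exact permutation p = 0.1). Cyp2a5 had its highest mean and Cyp2a12 its lowest in hCAR/hPXR mice. The ratio was chosen with these values seen, so its p-values are a description only and no test of a difference. The sum of the 4 Cyp2a members was not called in any comparison, with means of 447 ± 137, 528 ± 92.7, 607 ± 145 and 535 ± 32.3 CPM (SD, n = 3) in WT corn oil, WT CITCO, hCAR/hPXR and Car KO/hPXR mice.

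**Figure D4:**
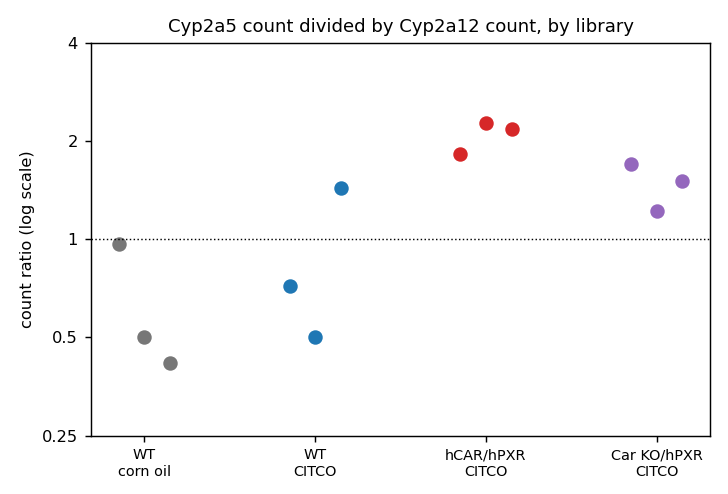
Count of Cyp2a5 divided by the count of Cyp2a12 (log axis) in each of the 12 libraries, by group, with a dotted line at 1. The hCAR/hPXR libraries are at 1.82 to 2.27, the Car KO/hPXR libraries at 1.22 to 1.70, and 5 of the 6 WT libraries below 1.

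The pattern of Cyp2b10 was compared with those of all genes tested, by the root mean square difference of log2 CPM over the 12 libraries after each gene's mean was removed. The nearest 3 were Cyp2c53-ps (1.16), Cyp2c55 (1.37) and Moxd1 (1.47), where the spread of Cyp2b10 itself was 2.71. Cyp2c53-ps, a pseudogene of the Cyp2c subfamily, had 27 to 102 counts in hCAR/hPXR libraries and 0 to 5 in all others. Cyp2c55, a P450 of the same subfamily, had 31 to 46 and 0 to 4, and Moxd1, a monooxygenase-like gene, had 12 to 41 and 0 to 8. Outside the hCAR/hPXR group all 3 were at 8 counts or fewer, as Cyp2b10 was. The 3 were picked for their nearness to Cyp2b10, so this likeness is no separate result.

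Of 29 other known targets of CAR, 26 were tested. The list was drawn up with earlier results of these data known, so its counts and medians are a description only. In hCAR/hPXR against WT CITCO mice, the median log2 difference of these targets was 0.40, against 0.01 over all genes. Of them, 5 were called higher and none lower, where 0.407% of all genes tested were called. The 5 were Cyp2c55 (4.25), Gstm3, a glutathione transferase (2.57), Cyp3a11, the main drug-metabolising Cyp3a enzyme (2.02), Cyp2c29 (1.93) and Ces2a, a carboxylesterase (1.08). Ugt1a1, the glucuronosyltransferase of bilirubin, whose reads can be shared with the other Ugt1a genes, was not called (adjusted p = 0.448, edgeR). It had 0, 79.3 and 115 expected counts in hCAR/hPXR libraries and 0 in each WT CITCO library. In sum it was at least 58.7-fold higher (bound against 3 counts over the group). This bound covers counting error only and not the spread between mice. Against Car KO/hPXR mice, where 0.582% of all genes were called, 6 targets were called higher and none lower (median 0.55). These were Cyp2c55 (3.86), Cyp2c29 (2.36), Cyp2c37 (1.55), Cyp2c50 (1.26), Cyp2c54 (1.22) and Ugt2b35, a glucuronosyltransferase (0.91). Cyp3a11 was at 1.03 in the same comparison (adjusted p = 0.0675, edgeR).

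Against WT corn oil, 8 CAR targets were called higher in hCAR/hPXR mice and none lower (median 0.44), where 0.977% of all genes were called. They were led by Cyp2c55 (4.84), Cyp2c29 (2.45) and Gstm3 (2.25). In each comparison of hCAR/hPXR mice, the size for Cyp2c55 rests on 0 to 4 counts per library in the lower group. In Car KO/hPXR against WT CITCO mice, where 0.256% of all genes were called, Gstm2 was called higher (1.08). Cyp2c37 (-1.68) and Cyp2c50 (-1.48) were called lower (median 0.15). For Car KO/hPXR against WT corn oil mice, where 0.0465% of all genes were called, only Cyp2c50 was called, lower (-1.53, median 0.22). In WT mice given CITCO against corn oil, only Alas1, the first enzyme of haem synthesis, was called (1.73, median -0.01). Of all genes, 0.233% were called there. Ugt1a1 had all its 267 counts of the WT corn oil group in replicate 1 and all 103 of the Car KO/hPXR group in replicate 3. In summed counts, WT CITCO was at least 74.0-fold lower than WT corn oil, and Car KO/hPXR at least 38.0-fold higher than WT CITCO. These bounds cover counting error only and rest on 1 library each. Neither difference was called (adjusted p = 0.429 and 0.527, edgeR). The medians are the same with Ugt1a1, which had 0 counts in WT CITCO, set at the bound that 3 counts over the group allow.

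**Figure D5:**
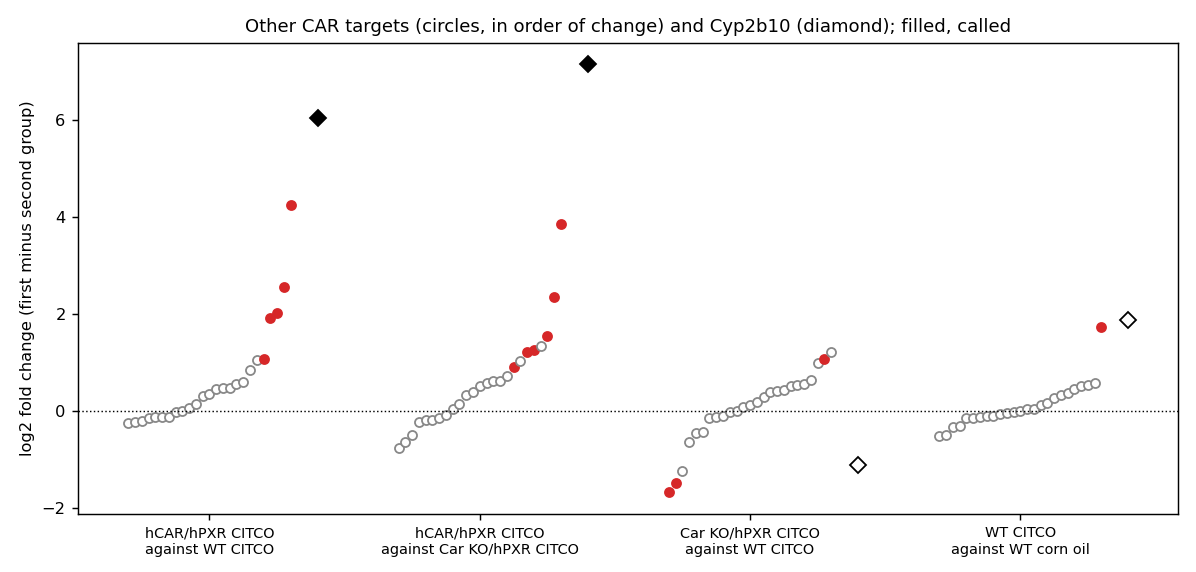
Log2 fold changes (linear axis, first minus second group) of 25 tested CAR targets, as circles in order of their change, and of Cyp2b10, as a diamond, in 4 comparisons, with called genes filled. Ugt1a1 is left out, since it had 0 counts in WT CITCO, and it also had 0 counts in an hCAR/hPXR library. Its bound of 58.7-fold in hCAR/hPXR mice is on summed counts and covers counting error only, and the gene was not called. Cyp2b10 is above every circle plotted in both comparisons of hCAR/hPXR mice and is not called in the other 2.

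Of the 6 other Cyp2 genes in the cluster, only Cyp2f2, which metabolises naphthalene, passed the filter. It was at 1080 ± 116, 1130 ± 329, 913 ± 89.0 and 1228 ± 295 CPM (SD, n = 3) in WT corn oil, WT CITCO, hCAR/hPXR and Car KO/hPXR mice and was not called in any comparison. Cyp2b19, Cyp2b23 and Cyp2t4 had 0 counts in all libraries, Cyp2g1 had 0 to 12 and Cyp2s1 0 to 3. Of the 13 Cyp2 genes of the cluster 4 were thus tested, and Cyp2b10 was the 1 called. Of 18 other genes known as female-biased in liver, 5 were tested and none was called in any of the 6 comparisons. Their median log2 difference in hCAR/hPXR mice was -1.36 against WT CITCO (4 of 5 below 0), -1.19 against Car KO/hPXR (5 of 5) and -1.19 against WT corn oil (4 of 5), where the median over all genes was 0.01. Of 19 male-biased genes only Moxd1 was called, higher in hCAR/hPXR than in WT corn oil mice, where 0.977% of all genes were called. It was at least 25.1-fold higher (bound against 3 counts over the group), as WT corn oil mice had 0 counts.

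Among 22 regulators of P450 genes and their electron donors, 21 were tested. The shares of all genes called were 0.407% and 0.256% for hCAR/hPXR and Car KO/hPXR against WT CITCO. They were 0.977% and 0.0465% for the same genotypes against WT corn oil. For hCAR/hPXR against Car KO/hPXR and for WT CITCO against WT corn oil they were 0.582% and 0.233%. Nr1i3 and Nr1i2 were called lower in both humanised genotypes, with the counts given above. Onecut1 and Foxa2, which are transcription factors of the liver, were called lower in hCAR/hPXR than in WT CITCO mice (-2.04 and -1.25) and higher in WT CITCO than in WT corn oil mice (3.17 and 1.12); these comparisons share the WT CITCO libraries. Against Car KO/hPXR mice, Foxa2 (-1.10) and the clock factor Dbp (-0.96) were called lower in hCAR/hPXR mice. Por, the electron donor of microsomal P450s, was called higher in hCAR/hPXR than in WT corn oil mice (0.94), as was Alas1 (1.49), which was also called in WT CITCO against WT corn oil mice. The transcripts of the human receptors were not counted, since reads were assigned to mouse genes only.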

How the data were processed

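Liver RNA was sequenced with a Lexogen QuantSeq 3′ kit for Ion Torrent. Per the labels, the authors used FastQC 11.7, Trimmomatic 36, STAR 2.5.2 and RSEM 1.3 on GRCm38, and deposited expected counts per gene (51912 genes) without normalisation. A second deposited table holds 17859 genes after DESeq2's variance-stabilising transformation, which resembles log2. Groups came from the sample labels, and 0 columns of values were unmatched.

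After rounding, all 12 libraries entered 1 edgeR 4.0.16 fit (R 4.3.3) with filterByExpr, TMM, a mean for each group and the quasi-likelihood test, adjusted by Benjamini-Hochberg over 8594 genes. There were 6 comparisons. Count ratios have exact conditional binomial 95% intervals. Sequences were aligned with Biopython 1.88. Coordinates and transcripts come from GENCODE M21, a different annotation release from the authors'. Mice are the replicates.

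Named genes are the 7 members, their sums, called genes of the lists (the 3 largest in each direction where over 6 were called), Nr1i3, Nr1i2 and the 3 nearest genes of a called member; Saa1 was added after its values were seen. The members and lists were chosen with earlier results of these data known. Alternatives were other size factors, DESeq2 1.42.0, limma 3.58.1 on the transformed values, other filters, fits of 2 groups, unrounded counts, a replicate block and leaving out each library.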

Additional observations from a re-analysis of the deposited data

How the results depend on the processing

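Depth limits what can be said of these genes: 4 of the 7 members had too few counts to test, and all groups but hCAR/hPXR held 3 to 10 counts of Cyp2b10 in all. Over the members and their sums, 682 of 696 values under an alternative kept their direction and side of the threshold, 8 became called and 6 changed sign. Without a filter on low counts, the number of members called was 2 for hCAR/hPXR against WT CITCO, 2 for hCAR/hPXR against WT corn oil and 1 for Car KO/hPXR against WT corn oil, with Cyp2a5 as the added call; the cause was not tested. Leaving out each library in turn gave 1 to 2 members called for hCAR/hPXR against WT corn oil, with 2 without WT corn oil replicate 1. The values that changed sign were small or rested on few counts. Over the fits without 1 library, the sum of the Cyp2a members ranged from -0.085 to 0.17 for Car KO/hPXR against WT CITCO (-0.085 without WT CITCO replicate 1, -0.02 without WT CITCO replicate 2 and -0.03 without Car KO/hPXR replicate 1). Cyp2a12 ranged from -0.058 (without WT CITCO replicate 2) to 0.17 for WT CITCO against WT corn oil, and Cyp2b10 and the sum of the Cyp2b members from -0.54 (without Car KO/hPXR replicate 3) to 3.69 for Car KO/hPXR against WT corn oil, where the groups held 4 and 3 counts.

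Over all genes, the number called was, for hCAR/hPXR and for Car KO/hPXR against WT CITCO, for CITCO against corn oil in WT, for hCAR/hPXR against Car KO/hPXR, and for hCAR/hPXR and for Car KO/hPXR against WT corn oil, 35, 22, 20, 50, 84 and 4. It was 184, 227, 179, 233, 261 and 95 without a filter and 64, 67, 44, 99, 130 and 12 with DESeq2, and 40 for Car KO/hPXR against WT CITCO in the fit of 2 groups. Leaving out 1 library gave 17 to 36, 5 to 58, 6 to 54, 10 to 86, 25 to 99 and 3 to 6. The lowest came without WT CITCO replicate 1 in the first 2, WT corn oil replicate 3, Car KO/hPXR replicate 3, WT corn oil replicate 2 and Car KO/hPXR replicate 1, and the highest in 4 of the 6 without WT CITCO replicate 3. Samples with the same number did not deviate together over all genes tested (correlations of -0.06 to 0.07), so no pairing by number was seen. A pairing that touches few genes would not show in these correlations. With the replicate block the counts were 33, 24, 20, 53, 91 and 5, and the members called were 1 in the 3 comparisons of hCAR/hPXR mice and 0 in the others.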
